A study of Mus musculus with 18 samples.

Results

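The genes described here carry cholesterol and other lipids out of cells or control that transport. They are 3 apolipoprotein genes (Apoe, Apod and Clu), 2 genes of ABC transporters that export lipid (Abca1 and Abcg1) and the 2 genes of the liver X receptors (Nr1h2 and Nr1h3). These 7 genes were taken by name from the 54838 genes of the count table, by a rule that uses no measured value, although earlier results of these data were known when the genes were chosen. The filter on low counts was passed by 20067 genes of the table, among them 5 of the 7, and Apod and Abcg1 did not pass it. The 18 libraries come from neural stem cells of C57BL/6J wild type mouse embryos at day 14, grown as neurospheres (NSP, 0 h) in 20 ng/ml EGF, or differentiated toward astrocytes in 10% serum without EGF. Differentiated cells were collected untreated after 24 h (24h), 72 h (72h) and 1 week (1week), or after 24 h and 72 h with TNF at 50 ng/ml (24h_TNF and 72h_TNF), with 3 replicates in each of the 6 groups. Each primary culture was started from the brain of a single embryo, and the labels do not say which libraries share an embryo. The p-values therefore measure the spread between these libraries, which may be partly technical.

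In the brain, astrocytes secrete most of the apolipoprotein E that moves cholesterol between glia and neurons. ABCA1 hands cholesterol and phospholipid to apolipoproteins that hold little lipid, and ABCG1 adds more lipid to particles already formed. The liver X receptors LXR-beta (Nr1h2) and LXR-alpha (Nr1h3) bind oxidized cholesterol, pair with retinoid X receptors on DNA and switch on Abca1, Abcg1 and Apoe, which makes export follow the cholesterol load of the cell.

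Total counts ranged from 12509693 to 22549627 per library, with a median of 16794798. Levels are given as CPM, a gene's counts per 1000000 counts of its library, scaled by the TMM factors of edgeR. The limit that a count of 0 allows, 3 counts, was 0.133 to 0.24 CPM per library, and it covers counting error only. The first libraries of the NSP, 24h_TNF and 72h_TNF groups stood apart from their replicates, with a chi-square per degree of freedom of 40.5 to 55.4 against either of the other two, which gave 3.71 to 11.1 against each other, while pairs in the remaining groups gave 5.07 to 28.6. RNA quality ranged widely over the libraries, and the sources do not give it for each. The first 24h_TNF library and the first 72h_TNF library also had the highest mitochondrial shares (6.24% and 8.01%) and the highest shares of the nuclear RNA Malat1 (6.46% and 5.85%) of the 18. The part of the first libraries in the results was not tested, and the results of the 7 genes that rest on them are given with and without them. Whole groups differed in these shares too. The mitochondrial share was 1.6% to 2.085% in the 1week libraries and 3.195% to 3.446% in those of 72h. Malat1 was at 1.496% to 2.239% in NSP and at 3.437% to 6.457% in the libraries of the other groups. The part of this in comparisons of these groups was not tested. Of the 8 listed genes known to respond to TNF, 6 were tested, and 6 rose at 24 h and 5 at 72 h. Of all tested genes, 2.18% and 4.35% were called higher there. This list, too, was chosen with earlier results of these data known. All 9 astrocyte markers had a mean of at least 1 CPM in every group, yet the 1week libraries had the lowest sum of these markers (2852 to 3331 CPM, against 5912 to 8329 CPM at 72 h) and a Gfap level of 63.4 ± 15.9 CPM (SD, n = 3) against 2432 ± 673 CPM at 72 h. Microglia are another source of apolipoprotein E in brain cultures, and their 10 markers summed to 1.15 to 3.95 CPM, with no count of C1qa or C1qb in any library.

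On GRCm38, Apoe lies at chr7:19696109-19699188 and Nr1h2 at chr7:44549616-44553951, Apod at chr16:31296192-31314808, Abca1 at chr4:53030787-53159895 and Nr1h3 at chr2:91184061-91202834, all on the reverse strand. Clu lies at chr14:65968483-65981547 and Abcg1 at chr17:31057675-31117988 on the forward strand. Nr1h3 shares 34 bases of exon (1.35% of its exons) with Gm13783 on the same strand, and the exons of the other 6 genes overlapped no other gene in the annotation. RefSeq promoters (GRCm38.p6) were at hand for 5 of the 7 genes. The 250 bases before the start site are shown for a highly expressed transporter, a highly expressed apolipoprotein and an apolipoprotein with almost no reads, because the liver X receptors act through such regions. They read from 5′ to 3′ on the reverse strand, and capitals mark the fixed letters of the liver X receptor element (2 copies of AGGTCA with 4 bases between them) with at most 3 mismatches, the E-box CACGTG and the TATA box TATAAA.
Abca1, chr4:53159896-53160145: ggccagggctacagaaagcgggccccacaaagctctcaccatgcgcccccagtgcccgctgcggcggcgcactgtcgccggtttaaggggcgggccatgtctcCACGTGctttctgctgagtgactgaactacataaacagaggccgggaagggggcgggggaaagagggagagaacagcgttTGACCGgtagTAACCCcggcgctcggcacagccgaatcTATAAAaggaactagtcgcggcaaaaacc
Apoe, chr7:19699189-19699438: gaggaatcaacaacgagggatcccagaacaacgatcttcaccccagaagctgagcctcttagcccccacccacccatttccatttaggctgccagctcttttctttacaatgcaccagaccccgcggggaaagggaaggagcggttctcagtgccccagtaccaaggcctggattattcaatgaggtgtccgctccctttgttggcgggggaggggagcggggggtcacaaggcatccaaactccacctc
Apod, chr16:31314809-31315058: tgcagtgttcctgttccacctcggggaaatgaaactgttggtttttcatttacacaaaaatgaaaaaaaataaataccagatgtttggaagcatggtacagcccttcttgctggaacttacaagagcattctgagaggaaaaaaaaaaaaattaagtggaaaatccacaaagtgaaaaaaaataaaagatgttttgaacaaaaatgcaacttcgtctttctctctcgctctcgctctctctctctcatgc

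The Abca1 promoter held a match to the liver X receptor element at bases -67 to -52 from the start, on the opposite strand and with 3 mismatches among its 12 fixed letters, an E-box at -147 to -142, a TATA box at -29 to -24 and 2 GC boxes (GGGCGG). Searched on both strands, these motifs occurred in 18.5%, 6.02%, 12.4% and 32.7% of 32851 RefSeq promoters of the same length, so none is rare. The half-site AGGTCA, which forms each arm of the element, was exact in 14.0% of promoters and absent from the 5 searched here. Apoe, Apod, Nr1h2 and Nr1h3 held none of the 5 motifs in this window, which says only that these letters are not there. RefSeq had 3 entries for Apoe and 2 for Nr1h3, and only the entry nearest the annotated gene start was searched. For Nr1h3 that window, chr2:91195117-91195366, lies inside the annotated gene. The promoters also differed in CpG pairs, with 20 in Abca1, 13 in Nr1h2, 8 in Apoe, 7 in Nr1h3 and 4 in Apod, against a median of 6 over all promoters.

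Apoe, the main apolipoprotein of the brain, was abundant in every group and highest at 72 h without TNF, 4.29-fold above 24 h. The NSP libraries had 313, 1268 and 1117 CPM, and the 24h libraries 571, 572 and 551 CPM. The 72h libraries had 1814, 3010.1 and 2443 CPM, and the 1week libraries 1163, 759 and 1064 CPM. The lowest 72h library thus lay above every library of the other 5 groups, while NSP and 24h overlapped through the first NSP library. Apoe rose from 24 h to 72 h (log2 2.10 ± 0.46 SE, adjusted p = 0.00232) and was 2.69-fold higher at 72 h than in NSP (log2 1.43 ± 0.45, adjusted p = 0.0116). Without the first NSP library the rise from NSP to 72 h was log2 1.02 (adjusted p = 0.0488). The difference of 24h from NSP, log2 -0.67 ± 0.44, missed the threshold (adjusted p = 0.213), but without the first NSP library Apoe fell by 1.08 on the log2 scale (adjusted p = 0.0318). Without that library the difference of 1week from NSP changed sign, from log2 0.15 to -0.26, and neither value passed the test.

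From 72 h to 1 week the groups did not overlap, with mean levels of 2422 and 995 CPM, but the difference of log2 -1.28 ± 0.45 (95% interval -2.22 to -0.34) had an adjusted p of 0.101. It passed without the first 24h_TNF library (adjusted p = 0.0262) and without the first NSP library (adjusted p = 0.0352), neither of which is part of the comparison, since the groups share 1 estimate of the spread. With TNF, Apoe was at 1351, 363 and 424 CPM at 24 h and at 1511, 846 and 1000.1 CPM at 72 h. At 24 h the first TNF library was above all 3 untreated libraries and the other two were below them. The fitted difference at 24 h, log2 0.34 ± 0.44 (adjusted p = 0.827), turned to -0.54 without that library (adjusted p = 0.677). At 72 h every TNF library was below every untreated library, and the difference of log2 -1.11 ± 0.45 had an adjusted p of 0.129. It was -1.10 without the first 24h_TNF library (adjusted p = 0.0459), and -1.38 without the 3 libraries that stood apart (adjusted p = 6.5e-05). From 24 h to 72 h with TNF the difference was log2 0.65 ± 0.44 (adjusted p = 0.382), but without the first 24h_TNF library Apoe rose by 1.55 (adjusted p = 0.0119), and without the 3 libraries by 1.27 (adjusted p = 0.000176). Gfap and the sum of the astrocyte markers were lower in the same groups. Gfap was at 2432 ± 673 CPM at 72 h, 489 ± 461 with TNF and 63.4 ± 15.9 at 1 week. The sum was 5912 to 8329, 3617 to 5148 and 2852 to 3331 CPM in this order. In NSP, before differentiation, the sum was 5180 to 5431 CPM, so it is not a measure of astrocyte content alone. The remaining markers are not given 1 by 1, and the part of any of them in the Apoe level was not tested. In bulk RNA, fewer cells of a type and less RNA per cell cannot be told apart. The effect of TNF at 72 h minus that at 24 h was log2 -1.45 ± 0.63 (adjusted p = 0.45), and -0.56 without the first 24h_TNF library.

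**Figure D1:**
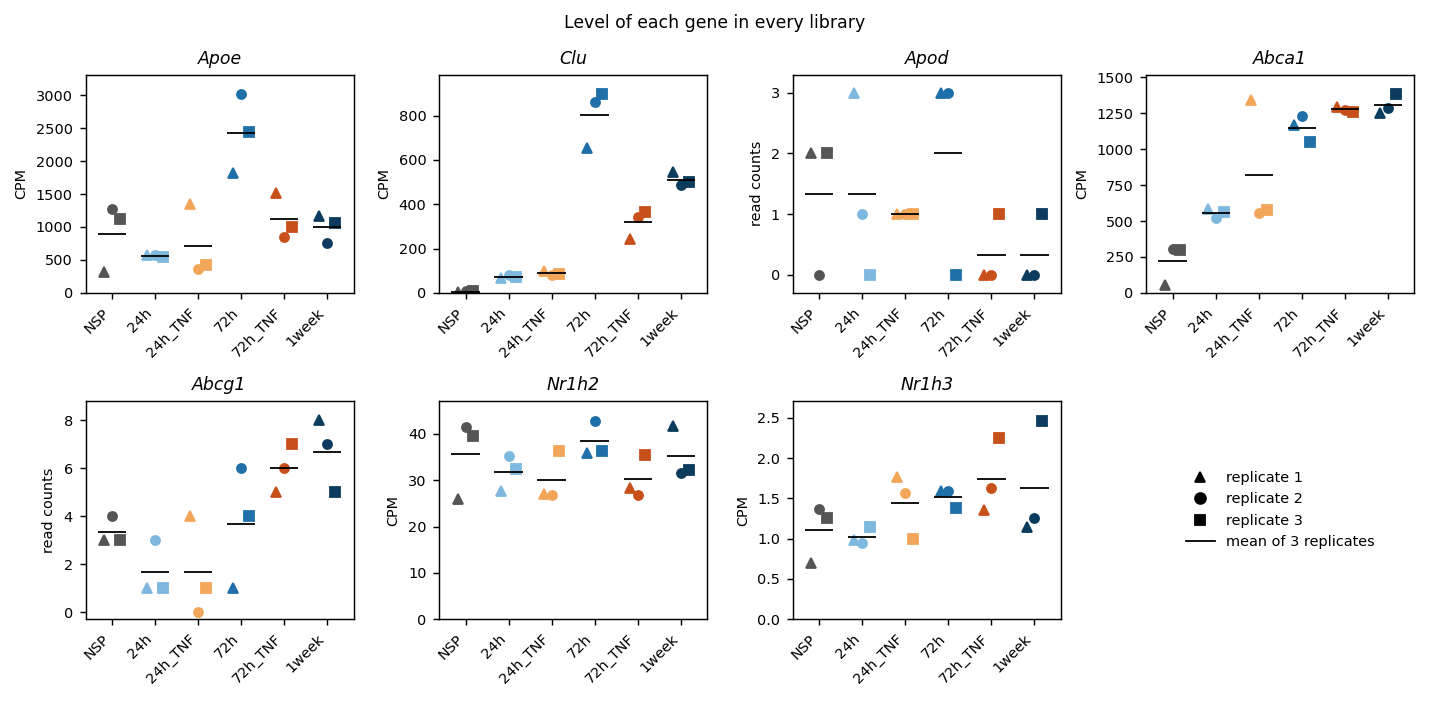
Level of each gene (y axis) in the 6 groups (x axis), in CPM for 5 genes and in read counts for Apod and Abcg1. Each symbol is a library, its shape gives the replicate number and the line is the mean of 3. Clu is near 0 in NSP and highest at 72h, and the first NSP and 24h_TNF libraries (triangles) lie apart for Apoe and Abca1.

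Clu, also called apolipoprotein J, encodes a secreted chaperone that binds lipids and misfolded proteins. It had the largest change of the 5 tested genes, 124-fold between NSP and 72 h (log2 6.95 ± 0.24, adjusted p = 3.44e-13). NSP libraries held 4.13, 7.85 and 7.40 CPM, 24h libraries 68.7, 80.8 and 71.5 CPM, and 72h libraries 655, 859 and 895 CPM. At 1 week the values were 547, 487 and 499 CPM. None of these 4 groups overlapped another. Clu was 11.3-fold higher at 24 h than in NSP (log2 3.50 ± 0.21, adjusted p = 7.36e-10), rose a further 10.9-fold to 72 h (log2 3.45 ± 0.20, adjusted p = 9.18e-09) and stood 78.7-fold above NSP at 1 week (log2 6.30 ± 0.24, adjusted p = 8.55e-13). Without the first NSP library the values against NSP were log2 3.27 at 24 h, 6.71 at 72 h and 6.06 at 1 week, and all passed. Between 72 h and 1 week it fell by 0.65 on the log2 scale (adjusted p = 0.0386). That last call did not hold in 8 of 18 fits with 1 library left out, namely those without any of the 3 libraries of 1week, any of the 3 of 24h, or replicate 2 or 3 of 72h, with adjusted p-values of 0.051 to 0.156 and log2 values of -0.78 to -0.57 over the 18 fits.

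The effect of TNF on Clu differed between the 2 times. At 24 h the TNF libraries held 101, 82.8 and 87.6 CPM, all above the untreated ones, and the difference of log2 0.29 ± 0.19 (95% interval -0.10 to 0.69) did not pass (adjusted p = 0.555), nor did the 0.19 without the first 24h_TNF library. At 72 h they held 243, 344 and 367 CPM, all below the untreated ones, and Clu fell by 1.34 on the log2 scale, or 2.53-fold (SE 0.19, adjusted p = 0.000112). The 2 effects differed by log2 -1.63 ± 0.26 (adjusted p = 0.00775). Without the 3 libraries that stood apart the fall at 72 h was log2 -1.16 ± 0.12 and the difference between the times -1.36 ± 0.17, and both passed. With TNF, Clu still rose 3.52-fold from 24 h to 72 h (log2 1.81 ± 0.19, adjusted p = 1.06e-05), and the rise was log2 2.10 without the 3 libraries (adjusted p = 9.79e-09).

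Clu is also known from ependyma and choroid plexus, and the summed level of 7 markers of these cells, of which 2 to 4 reached a mean of 1 CPM in a group, is given beside it. The sum was 20.9 to 34.5 CPM in NSP, 91.1 to 105 at 24 h, 94.9 to 157 at 24 h with TNF, 258 to 352 at 72 h, 220 to 294 at 72 h with TNF and 228 to 283 at 1 week. Most of it was Foxj1, at 27.8 ± 7.79 CPM in NSP and 271 ± 49.5 at 72 h, whereas Clic6 had no count and Ttr stayed at or under a mean of 0.308 CPM. The Gfap level and astrocyte marker sum given beside Apoe were also below 72 h at 72 h with TNF and at 1 week, where Clu was lower. In NSP, where Clu was lowest, that sum was 5180 to 5431 CPM. The part of either cell type in the Clu level was not tested.

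Apod, a lipocalin that binds small lipids, was almost without reads. The NSP libraries had 2, 0 and 2 counts, the 24h libraries 3, 1 and 0, the 24h_TNF libraries 1 each, the 72h libraries 3, 3 and 0, and the 72h_TNF and 1week libraries 0, 0 and 1. No library exceeded the limit that a count of 0 allows, so no difference between groups was detectable at this depth.

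Abca1, which moves cholesterol onto lipid-poor apolipoproteins, climbed from NSP to 72 h and then stayed near one level. The NSP libraries had 56.4, 308 and 300.0 CPM and the 24h libraries 584, 520.0 and 566 CPM. The 72h libraries had 1167, 1228 and 1051 CPM and the 1week libraries 1248, 1282 and 1380.0 CPM. These 4 groups did not overlap, although 72h and 1week were close. Against NSP, Abca1 was 2.51-fold higher at 24 h (log2 1.33 ± 0.41, adjusted p = 0.0105), 5.18-fold at 72 h (log2 2.37 ± 0.42, adjusted p = 9.91e-05) and 5.88-fold at 1 week (log2 2.56 ± 0.42, adjusted p = 4.42e-05). Without the first NSP library, which had the lowest value, these were log2 0.87, 1.91 and 2.10, and all passed. The step from 24 h to 72 h was log2 1.05 ± 0.40 (adjusted p = 0.0659), and it passed without the first NSP library (adjusted p = 0.00245) or the first 24h_TNF library (adjusted p = 0.0334), both outside the comparison. From 72 h to 1 week the difference was log2 0.18 ± 0.40 (95% interval -0.65 to 1.02).

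With TNF, Abca1 was at 1339.9, 553 and 573 CPM at 24 h and at 1295, 1275 and 1259.6 CPM at 72 h. Replicates 2 and 3 of 24h_TNF lay within the untreated range, and replicate 1 was above it. The TNF difference at 24 h was log2 0.56 ± 0.40 (adjusted p = 0.616), and it was -0.00090 without that library. At 72 h the TNF libraries were all above the untreated ones, by log2 0.15 ± 0.40 (95% interval -0.68 to 0.99), which did not pass (adjusted p = 0.85). From 24 h to 72 h with TNF the difference was log2 0.63 ± 0.40 (adjusted p = 0.337), and without the first 24h_TNF library Abca1 rose by 1.22 (adjusted p = 0.0445). The 2 TNF effects differed by -0.41 ± 0.56, and by 0.16 without that library.

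Abcg1, the transporter that enriches formed particles, had 0 to 8 counts per library. The NSP libraries had 3, 4 and 3 counts, the 24h libraries 1, 3 and 1, the 24h_TNF libraries 4, 0 and 1, and the 72h libraries 1, 6 and 4. The 72h_TNF libraries had 5, 6 and 7 counts and the 1week libraries 8, 7 and 5. The latter 2 groups were the only ones with every library above 4 counts, but the gene did not pass the filter, and it was called in no comparison of a fit without the filter (lowest adjusted p = 0.225). Abca1 had 889 to 28263 counts in the same libraries.

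Nr1h2, the gene of LXR-beta, spanned a narrow range of levels. It ran from 25.9 CPM in the first NSP library to 42.8 CPM in the second 72h library, with means of 35.6 ± 8.49 in NSP, 31.8 ± 3.84 at 24 h, 30.02 ± 5.41 at 24 h with TNF, 38.3 ± 3.88 at 72 h, 30.2 ± 4.65 at 72 h with TNF and 35.2 ± 5.73 at 1 week. No comparison passed, with or without the 3 libraries that stood apart. Its largest difference was log2 -0.35 ± 0.18 with TNF at 72 h (95% interval -0.73 to 0.04, adjusted p = 0.248), where the groups did not overlap.

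Nr1h3, the gene of LXR-alpha, rested on 11 to 36 counts per library. Means were 1.11 ± 0.36 CPM in NSP, 1.02 ± 0.10 at 24 h, 1.44 ± 0.39 at 24 h with TNF, 1.52 ± 0.13 at 72 h, 1.74 ± 0.46 at 72 h with TNF and 1.62 ± 0.73 at 1 week. None of its comparisons passed, with or without those 3 libraries, and the difference of 72h from 24h, where the groups did not overlap, was log2 0.57 ± 0.36 with a 95% interval of -0.18 to 1.31. Intervals of this width leave room for a change of more than 2-fold.

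Divided by the length of its exons, Apoe at 72 h had 1133 CPM per kb and ranked 15 of the 54809 genes with annotated exons. It was followed by Clu at 234 (rank 75), Abca1 at 111 (rank 216), Nr1h2 at 11.4 (rank 4276) and Nr1h3 at 0.60 (rank 17606). Apod had 0.053 and Abcg1 0.030 CPM per kb. Clu stood above Abca1 only at 72 h and at 1 week (149 against 126 CPM per kb), and the order was the reverse in the other 4 groups, where Clu and Abca1 had means of 1.88 and 21.4 CPM per kb in NSP, 21.4 and 53.7 at 24 h, 26.3 and 79.3 at 24 h with TNF and 92.5 and 123 at 72 h with TNF. In each library Nr1h2 was read more than Nr1h3 per length, by a ratio of 9.81 to 27.8 with a median of 19.95 over the 18. The ratio of Apoe to Clu per length spanned 121.9 to 259.6 in NSP, 11.4 to 13.4 at 24 h, 7.04 to 21.5 at 24 h with TNF, 4.38 to 5.63 at 72 h, 3.96 to 9.98 at 72 h with TNF and 2.50 to 3.43 at 1 week.

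**Figure D2:**
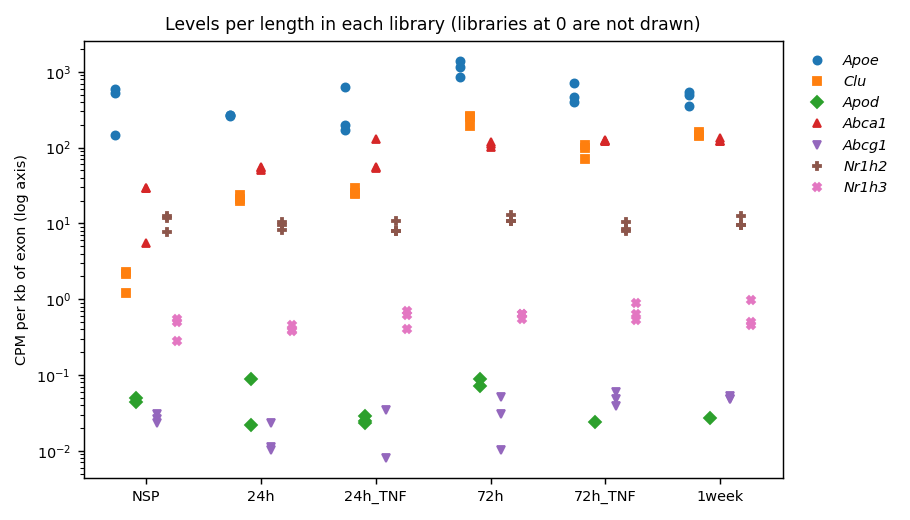
CPM per kb of exon (y axis, log scale) of the 7 genes in each library of the 6 groups (x axis), with libraries at 0 not drawn. Apoe lies highest in every group and Apod and Abcg1 lowest, the means of Nr1h2 stay between 8.95 and 11.4, and the mean of Clu moves from 1.88 in NSP to 234 at 72h.

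The groups were also ordered by their means within each gene. For Apoe it ran from 24h over 24h_TNF, NSP, 1week and 72h_TNF to 72h, and of these neighbours only 72h_TNF and 72h had ranges that did not overlap, a difference that did not pass the test. For Clu it ran from NSP over 24h, 24h_TNF, 72h_TNF and 1week to 72h, with no overlap between any neighbours, of which 24h and 24h_TNF did not differ past the threshold and 72h_TNF and 1week were not compared. For Abca1 it ran from NSP over 24h, 24h_TNF, 72h and 72h_TNF to 1week, where 24h_TNF overlapped 24h with replicates 2 and 3 and spanned 72h through its first library, and 72h_TNF overlapped 1week, while 72h and 72h_TNF did not overlap but did not differ past the threshold. All neighbours overlapped for Nr1h2 and Nr1h3.

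Counted over the 5 tested genes, 2 were called higher at 24 h than in NSP (Clu and Abca1), where 52.7% of all tested genes were called, 27.2% higher and 25.5% lower. At 72 h against NSP 3 were higher (Apoe, Clu and Abca1), with 55.3% of all genes called (28.1% higher, 27.2% lower), and at 1 week 2 were higher (Clu and Abca1), with 58.6% called (29.6% higher, 29.1% lower). From 24 h to 72 h 2 rose (Apoe and Clu), with 24.8% called (12.2% higher, 12.6% lower). These counts over time are read against a background in which many genes moved. From 72 h to 1 week 1 fell (Clu), with 6.63% called (2.68% higher, 3.96% lower). TNF changed none at 24 h, with 3.5% called (2.18% higher, 1.32% lower), where edgeR gave 0 members an unadjusted p under 0.05 and DESeq2 called 0. At 72 h TNF lowered 1 (Clu), with 9.56% called (4.35% higher, 5.21% lower). From 24 h to 72 h with TNF 1 rose (Clu), with 13.3% called (5.38% higher, 7.93% lower), and the difference between the 2 TNF effects was called for 1 (Clu), with 0.458% called (0.135% higher, 0.324% lower). Without the 3 libraries that stood apart the counts in this order were 3 (Apoe lower, Clu and Abca1 higher), 3, 2, 3, 2, 0, 2, 3 and 1, while the shares of all genes called in that fit rose to 56.1%, 56.9%, 61.1%, 34.3%, 15.8%, 6.26%, 13.4%, 23.0% and 1.7%. Comparisons that share a group, such as those against NSP, share its libraries.

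**Figure D3:**
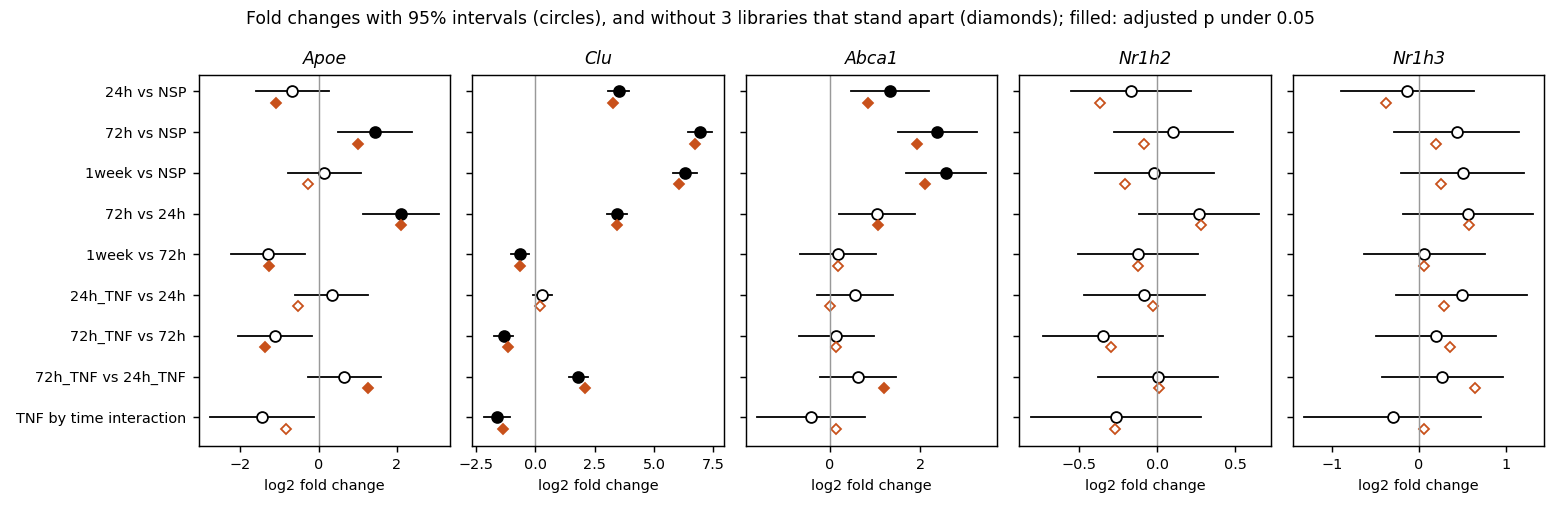
Log2 fold change (x axis) of the 5 tested genes in 8 comparisons of 2 groups and for the TNF effect at 72h minus that at 24h (y axis). Circles are the fit over all 18 libraries with 95% intervals, diamonds the fit without the 3 libraries that stood apart, and filled symbols have an adjusted p under 0.05. With TNF at 72h Apoe is filled only as a diamond, at -1.38 against -1.11, and Clu keeps its sign in all 9.

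For each of the 5 tested genes, the 3 genes with the most similar profile were sought among 16450 genes with a mean of at least 1 CPM, by the root mean square difference of centred log2 CPM over the 18 libraries. Apoe was closest to Dnaic2 (0.29), Gprasp2 (0.39) and Gpr37l1 (0.39). Clu was closest to Sema3e (0.42), Rassf4 (0.48) and Ogn (0.51), and Abca1 to Fn3k (0.28), Cr2 (0.34) and Crebrf (0.35). Nr1h2, which varied little, was closest to Rbck1 (0.11), Nucb1 (0.11) and the retinoid X receptor gene Rxrb (0.12), and Nr1h3 to Fbxl20 (0.25), Gm44321 (0.26) and Zfp937 (0.26). The members were less alike, with 0.97 between Apoe and Abca1, 2.01 between Apoe and Clu and 0.44 between Nr1h2 and Nr1h3. A small difference is reached easily by a gene that hardly varies.

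The wider pathway was described with 6 lists of 88 other genes, of which 71 were tested and 6 stand in more than 1 list. At 72 h against NSP 24 of the 71 were higher and 18 lower, with a median log2 change of 0.10 against 0.05 over all tested genes, and at 1 week 24 were higher and 23 lower. Either way 42 and 47 of the 71 were called, where 55.3% and 58.6% of all tested genes were, so these counts are near the background. TNF raised 2 and lowered 4 at 24 h (median -0.06 against -0.01) and raised 3 and lowered 9 at 72 h (median -0.20 against -0.01), where 3.5% and 9.56% of all tested genes were called. From 72 h to 1 week 9 were higher and 7 lower, 16 of the 71, against 6.63% of all tested genes. Without the 3 libraries that stood apart, 49 and 47 were called at 72 h and 1 week against NSP, and 12 and 15 with TNF at 24 h and 72 h. The shares of all genes called in that fit were also higher, at 56.9%, 61.1%, 6.26% and 13.4% in this order. Called genes went in both directions, so each list is given apart. The genes of the last 5 lists named below for 72 h against NSP, Ncoa5 and Rxrg aside, were also called without the 3 libraries.

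Of 13 other apolipoprotein genes 5 were tested, all with low levels. Apob had no count in any NSP library and 0.75 ± 0.16 CPM at 72 h, and Apoh had 0.27 ± 0.25 and 1.29 ± 0.23 CPM. They are the only 2 called there and were named after their values were seen. Both were too low in NSP for the filter and passed it through groups where they were higher, so their calls against NSP are given as a description. Apoc1, which lies beside Apoe in the genome, was at 1.78 ± 0.88 CPM in NSP and 2.01 ± 0.63 CPM at 72 h and passed no test. With TNF at 72 h Apob had 0.21 ± 0.16 CPM, and this call by edgeR (adjusted p = 0.049) rests on the same selection and was not made by DESeq2, which called 0 of the list. The other 4 did not pass, with a list median of log2 -0.69.

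Of 14 receptors of lipoproteins and their regulators 13 were tested. At 72 h against NSP 5 were higher and 3 lower, with a median of -0.13. Sorl1, a sorting receptor that binds apolipoprotein E, rose 19.9-fold (log2 4.32 ± 0.17), from 16.2 to 324 ± 25.6 CPM, and the HDL receptor Scarb1 fell 4.05-fold, so receptors moved in both directions. Between 72 h and 1 week 2 were higher and 2 lower. The scavenger receptor Cd36 fell 15.6-fold, from 16.3 ± 4.15 to 1.08 ± 0.53 CPM, and the large receptor Lrp2 rose 2.56-fold from 99.4 ± 7.28 to 255 CPM. With TNF 1 was higher and 1 lower at 24 h, and 0 were higher and 3 lower at 72 h. Lrp8, a receptor for apolipoprotein E and reelin, was lower at 24 h (log2 -0.76 ± 0.15, adjusted p = 0.0077) and at 72 h (log2 -0.79 ± 0.16, adjusted p = 0.00266), the former losing its call without replicate 3 of 24h (adjusted p = 0.0507). Cd36 was lower with TNF at 72 h (log2 -1.42 ± 0.32, adjusted p = 0.00695). Without the 3 libraries that stood apart these were log2 -0.71 and -0.77 for Lrp8 and -1.87 for Cd36, and all were called.

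Of 15 other ABC lipid transporters 13 were tested, and at 72 h against NSP 4 were higher and 4 lower (median 0.36). Abca9 rose 42.3-fold, from 2.54 ± 0.88 to 108.5 ± 7.99 CPM, and Abca4 rose 6.27-fold to 5.72 ± 0.73 CPM. Abcg2, an exporter known as a marker of stem cells, fell 3.64-fold, from 33.8 ± 8.37 to 9.24 ± 1.45 CPM. From 72 h to 1 week 1 was higher, Abca8b (1.72-fold), and 2 were lower. Abca9 fell 2.87-fold to 37.8 ± 2.77 CPM (adjusted p = 0.0273), a call lost without any of the 3 libraries of 1week or replicate 2 or 3 of 72h (highest adjusted p 0.107). Abcd2, a peroxisomal transporter of fatty acids, fell 1.68-fold (adjusted p = 0.0374), and its call was kept in 10 of 18 fits with 1 library left out (highest adjusted p 0.165). No gene of the list was called with TNF at 24 h by edgeR (0 also by DESeq2 and 0 at an unadjusted p under 0.05), and 1 was called at 72 h, Abca2 (log2 0.67 ± 0.19, adjusted p = 0.0328), which lost its call without replicate 2 or 3 of 72h or replicate 1 or 3 of 72h_TNF (highest adjusted p 0.168), and without the 3 libraries that stood apart (adjusted p = 0.0648).

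**Figure D4:**
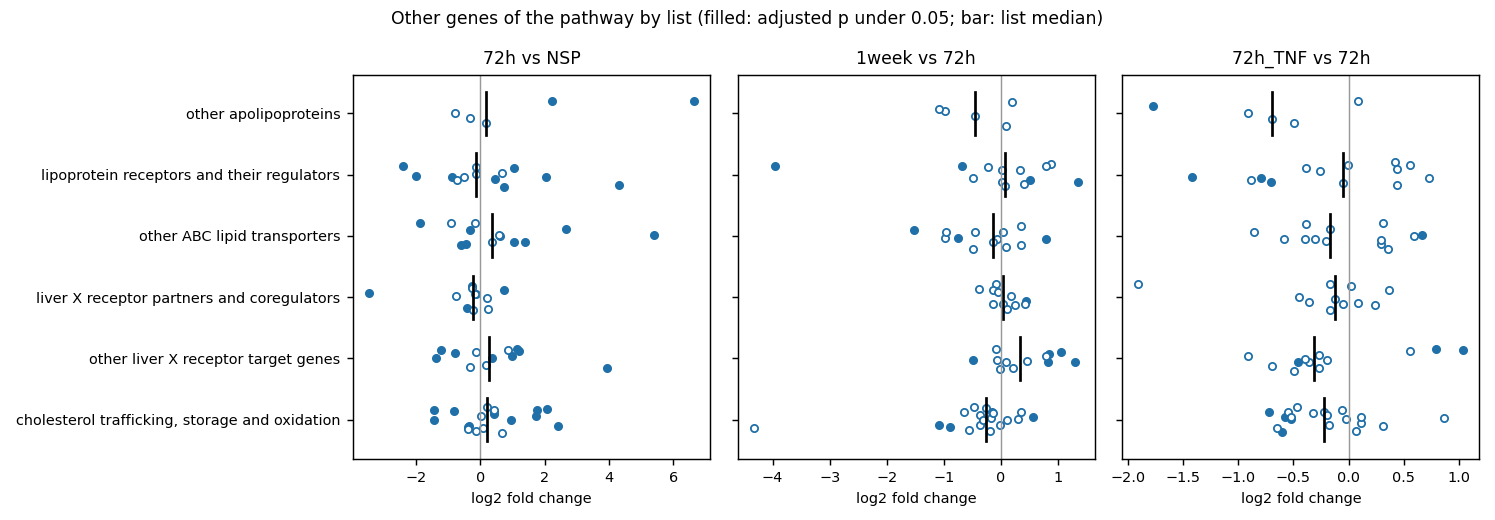
Log2 fold change (x axis) of the tested genes of 6 lists (y axis) in 3 comparisons. Each point is a gene, filled at an adjusted p under 0.05, and the bar is the list median. At 72h against NSP called genes lie on both sides of 0 in 5 of the lists, and with TNF at 72h all 6 medians lie below 0.

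The 11 partners and coregulators of the liver X receptors were all tested. At 72 h against NSP 1 was higher, the coactivator Ncoa2 (1.67-fold, adjusted p = 6.87e-05), and 3 were lower, namely Gps2 (log2 -0.42), Ncoa5 (log2 -0.25) and Rxrg, of which Ncoa5 did not pass without the 3 libraries that stood apart (adjusted p = 0.0631). With each of the 18 libraries left out in turn, the call of Gps2 was kept in 13 fits and that of Ncoa5 in 9. Rxrg, named after its values were seen, had 2.06 ± 0.53 CPM at 24 h and means of at most 0.30 CPM in the other 5 groups. It passed the filter through the 24h group alone, so its calls are given as a description. Rxra, the main partner, was at 60.9 ± 9.75 CPM in NSP and 46.3 ± 1.79 at 24 h, and rose 1.51-fold from there to 72 h (adjusted p = 0.00306). With TNF 2 were lower at 24 h, the coactivator Ncoa1 (log2 -0.52, adjusted p = 0.0302, kept in 14 of 18 fits with 1 library left out) and Rxrg, and 0 were called at 72 h by edgeR and by DESeq2, 2 having an unadjusted p under 0.05 by edgeR.

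Among 19 other known targets of the liver X receptors 12 were tested. At 72 h against NSP 5 were higher and 3 lower (median 0.27), and at 1 week 7 were higher and 1 lower (median 0.67). Pltp, the phospholipid transfer protein, rose 15.3-fold from 7.83 ± 0.52 CPM in NSP to 119.6 ± 15.4 CPM at 72 h (log2 3.93 ± 0.19) and was at 113 ± 8.01 CPM at 1 week. Fasn, the fatty acid synthase, fell 2.59-fold from NSP to 72 h, and Scd1, a fatty acid desaturase, fell 2.35-fold. From 72 h to 1 week 4 of the 12 were higher and 1 lower, where 6.63% of all tested genes were called. Srebf1, the master regulator of fatty acid synthesis, rose 2.46-fold (from 171 to 422 ± 38.3 CPM), Scd1 2.06-fold, Fasn 1.79-fold and Scd2 1.77-fold, of which Fasn lost its call without replicate 2 of 1week or replicate 3 of 72h (highest adjusted p 0.0726). Over that interval Abca1 differed by log2 0.18 and Apoe by -1.28, neither past the threshold. With TNF at 24 h Arl4c, which promotes cholesterol export, rose 2.51-fold (log2 1.33 ± 0.28, adjusted p = 0.00987), a call lost without replicate 1 or 3 of 24h (highest adjusted p 0.0623), and it was the only one of the list called there by edgeR, while DESeq2 called 2. At 72 h with TNF 2 were higher, among them Arl4c (log2 1.04 ± 0.28), and 1 was lower, the phospholipid enzyme Lpcat3 (log2 -0.46 ± 0.10), although the list median was -0.31, and the Arl4c call was lost without replicate 1, 2 or 3 of 72h or replicate 2 or 3 of 72h_TNF (highest adjusted p 0.107). Without the 3 libraries that stood apart Arl4c was at log2 1.41 at 24 h and 1.42 at 72 h and Lpcat3 at -0.45, and all were called.

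Of 22 genes of cholesterol trafficking, storage and oxidation 19 were tested, with 7 higher and 5 lower at 72 h against NSP (median 0.20). Stard5, a sterol carrier, rose 4.19-fold, from 8.82 ± 0.58 to 36.97 ± 2.32 CPM, and Gramd1c, which moves cholesterol from the plasma membrane to the endoplasmic reticulum, rose 5.34-fold. Cyp46a1, whose 24-hydroxycholesterol is a ligand of the liver X receptors in the brain, rose 3.36-fold, from 3.39 ± 1.02 to 11.4 ± 1.05 CPM. Between 72 h and 1 week 1 was higher and 2 were lower. Soat1, which stores cholesterol as esters, fell 1.85-fold, and Cyp7b1, which breaks down oxysterols, fell 2.12-fold. With TNF at 24 h 1 was lower, Cyp46a1 (log2 -0.77 ± 0.21, adjusted p = 0.0482), a call kept in 4 of 18 fits with 1 library left out (highest adjusted p 0.192). With TNF at 72 h 4 were lower and 0 higher (median -0.22), namely Osbpl1a (log2 -0.72 ± 0.16, adjusted p = 0.00792), Stard3 (-0.60), Soat1 (-0.58) and Scp2 (-0.52). Without replicate 3 of 72h none of the 4 passed, with adjusted p-values of 0.0575, 0.172, 0.061 and 0.265 in this order. With each of the 18 libraries left out in turn, the call was kept in 17 fits for Osbpl1a, 5 for Stard3, 15 for Soat1 and 9 for Scp2, and without the 3 libraries that stood apart that of Scp2 was lost (adjusted p = 0.0669).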

How the data were processed

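Total RNA was depleted of ribosomal RNA and made into stranded libraries. The authors trimmed reads with Trim Galore, aligned them with STAR and counted them per gene with featureCounts (versions not given in the sources used here; mm10 per the submitters' processing notes), and deposited raw counts. The counting strand is not given either. The third 72h library was matched to its column by its suffix, as that column carries replicate number 4. Names and positions come from GENCODE M21 (54809 of 54838 identifiers matched), promoters from RefSeq.

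Using edgeR 4.0.16 (R 4.3.3), the quasi-likelihood test with TMM factors was fitted to all 18 libraries after its filter by group (20067 genes), with Benjamini-Hochberg adjustment over all tested genes and a threshold of 0.05. The fit was also run on simulated counts that held no libraries standing apart, and no result here rests on that run. Alternatives were DESeq2 1.42.0, RLE factors, no filter, at least 10 counts in every library, fits of only the compared groups, a block on replicate number, and each library left out. Leaving out 3 libraries together was added after the data were seen. For 72h_TNF against 24h_TNF, libraries with the same number in the labels deviated together in all 3 pairs (correlations 0.255 to 0.291). Members and lists were chosen with earlier results of these data known. Genes named from a list are up to 4 called genes with the largest change and a mean of at least 1 CPM. Some genes that meet this rule are not reported here.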

Additional observations from a re-analysis of the deposited data

Results flagged for a closer look

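The effect of TNF on Clu differed between the times by log2 -1.63 (edgeR's interaction test, adjusted p = 0.00775), with TNF libraries above the untreated ones in all 3 at 24 h and below them in all 3 at 72 h. The difference at 24 h alone, log2 0.29 ± 0.19, did not pass in edgeR (adjusted p = 0.555), so a rise with TNF at that time is not shown. The interaction value lay between -1.76 and -1.46 in the 18 fits with 1 library left out, each with an adjusted p under the threshold.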

How the results depend on the processing

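Of the calls of members in the reported fit, that of Clu from 72 h to 1 week was lost under 9 of 26 alternatives, and the others held under all 26. Of the member values, 30 changed sign under an alternative, and 0 of these were called there. The cause of the changes below was not tested. With no filter the count of called members was 2 for 1week against 72h, 2 for TNF at 72 h, 3 from 24 h to 72 h with TNF and 2 for the difference between the TNF effects (1 each in the reported fit), and 1 for TNF at 24 h (0), where 5.4%, 7.29%, 8.46%, 1.47% and 3.65% of all genes were called in this order. The members called without the filter and not in the reported fit were Apoe from NSP to 24 h, Abca1 from 24 h to 72 h, Apoe from 72 h to 1 week, with TNF at 72 h and in the difference between the TNF effects, Apoe and Abca1 from 24 h to 72 h with TNF, and Abca1 with TNF at 24 h, and Apod and Abcg1 were called in none of the 9 comparisons. This fit keeps the first 24h_TNF library, at 1340 CPM of Abca1 against 553 and 573 in its replicates. For Apoe these values were 1351 against 363 and 424 CPM. In fits of only the compared groups it was 2 for 1week against 72h and 2 for TNF at 72 h (11.1% and 6.97% of all genes). Without the 3 libraries that stood apart it was 2, 2 and 3 for 1week against 72h, TNF at 72 h and 24 h to 72 h with TNF (15.8%, 13.4% and 23.0%). With 1 library left out it ran from 0 to 2 for 1week against 72h, 1 to 2 for TNF at 72 h and 1 to 3 from 24 h to 72 h with TNF. The count over all genes also changed markedly in some fits of this kind, as given below.

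Among the other pathway genes, the count from 72 h to 1 week (16) was 27 without the 3 libraries and 9 to 19 with 1 left out. For TNF at 24 h (6) it was 14 with no filter, 12 without the 3 libraries and 1 to 10 with 1 left out, and for TNF at 72 h (12) it was 7 in fits of only the compared groups and 3 to 16. From 24 h to 72 h with TNF (20) it was 8 in fits of only the compared groups and 8 to 23, and for the difference between the TNF effects (0) it was 5 with no filter and 1 without the 3 libraries. With at least 10 counts in every library, which moved the median of all genes by log2 0.10 to 0.11 against NSP, 25 were higher and 12 lower at 72 h (24 and 18 in the reported fit), and TNF at 24 h raised 3 and lowered 2 (2 and 4).

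Over all genes, 1week against 72h (1331 calls) gave 2032 with no filter, 2001 in fits of only the compared groups and 3224 without the 3 libraries. TNF at 24 h (703) gave 1374 with no filter and 1277 without the 3 libraries, TNF at 72 h (1919) gave 1277 in fits of only the compared groups, and 24 h to 72 h with TNF (2670) gave 828 in such fits and 4685 without the 3 libraries. The difference between the TNF effects (92, 27 higher and 65 lower) gave 56 with at least 10 counts (24 and 32), 239 with DESeq2, 554 with no filter (226 and 328), 38 in fits of only the compared groups and 348 without the 3 libraries. With 1 library left out, the count over all genes changed markedly in 25 results over the 9 comparisons and not in 137. The shares of all genes called carry the same limit. Of 42 mean levels, 1 moved by more than its SD with raw library totals and 26 did with totals that leave out the 100 most counted genes, by ratios of 1.13 to 1.36.

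Log2 values that changed sign without the 3 libraries were those of Apoe for 1week against NSP (-0.27) and TNF at 24 h (-0.54), Abca1 for the difference between the TNF effects (0.15), Nr1h2 for 72h against NSP (-0.084) and Nr1h3 for the difference between the TNF effects (0.066). Nr1h2 for 1week against NSP was 0.085 with at least 10 counts and 0.0088 in fits of only the compared groups. With 1 library left out, Apoe spanned -0.26 to 0.47 for 1week against NSP and -0.54 to 0.65 for TNF at 24 h, and Abca1 -0.00090 to 0.78 for TNF at 24 h and -0.62 to 0.16 for the difference between the TNF effects. Nr1h2 spanned -0.083 to 0.22 for 72h against NSP, -0.20 to 0.10 for 1week against NSP and -0.13 to 0.16 from 24 h to 72 h with TNF. Nr1h3 spanned -0.37 to 0.048 for 24h against NSP, -0.33 to 0.28 for 1week against 72h and -0.029 to 0.35 for TNF at 72 h.

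A replicate block changed no call of a member, and the counts over all genes with it were 10436, 11012, 11672, 4830, 1239, 650, 1814, 2482 and 65 against 10576, 11104, 11766, 4970, 1331, 703, 1919, 2670 and 92. It turned Nr1h2 for 1week against NSP to 0.0064. Same-numbered libraries correlated at -0.416 to 0.303 in the 7 comparisons other than 72h_TNF against 24h_TNF, and in none of these was every library closest to its own number (1 to 4 of 6 were). With the third 72h library in a replicate block of its own, the Clu call from 72 h to 1 week was lost (0 members called), the pathway counts were 16 from 24 h to 72 h (25 in the reported fit), 10 from 72 h to 1 week and 2 with TNF at 72 h, and the counts over all genes were 3286, 617 and 986 for these and 24 for the difference between the TNF effects. That block turned Nr1h2 for 1week against NSP to 0.0095 and Nr1h3 to -0.14 for 1week against 72h and -0.00068 for TNF at 72 h. Low counts limit Nr1h3, Apod and Abcg1.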

Other observations

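The other marker lists describe which cells the cultures could hold. Neural stem cell markers summed to 5068 to 6486 CPM in NSP and to 1605 to 2082 CPM at 1 week. Markers of the oligodendrocyte lineage summed to 613 to 936 CPM in NSP and to 275 to 346 CPM at 1 week, and those of neurons to 26.8 to 49.1 CPM in NSP, 43.1 to 51.5 CPM at 24 h and 9.37 to 10.4 CPM at 1 week. Endothelial markers stayed at 3.02 to 7.61 CPM in all 18 libraries and those of fibroblasts and leptomeninges at 0.44 to 2.54 CPM.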
